A study of Mus musculus with 4 samples.

Results

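The Gimap cluster of mouse chromosome 6 holds 8 protein-coding genes for GTPases of the immunity-associated protein family, chosen by symbol and position: Gimap8, Gimap9, Gimap4, Gimap6, Gimap7, Gimap1, Gimap5 and Gimap3, in chromosome order. They are 8 of the 21887 protein-coding genes measured on chromosomes 1 to 19, X and Y, and they span 123.7 kb of the mm10 build (chr6:48647186-48770851). Dimethylation of histone H3 at lysine 79 (H3K79me2) had been mapped by ChIP-seq, the sequencing of DNA bound to immunoprecipitated chromatin. The cells were C57BL/6 double-negative thymocytes. They had been grown from haematopoietic stem cells to the DN3 stage with Flt-3L and IL-7 on the feeder line OP9-DL1, stromal cells that present a Notch ligand. The inhibitor group was grown with A939572, which blocks the stearoyl-CoA desaturase SCD1, the enzyme that turns stearic into oleic acid, and the control group with the vehicle DMSO. Both groups shared strain, feeder line and cytokines, and each is 1 ChIP library, so no difference below has a replicate check, an error or a p-value. The matching inputs are not analysed here.

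GIMAP proteins are small GTPases that sit on intracellular membranes such as those of lysosomes, mitochondria and the endoplasmic reticulum, and they are made chiefly in lymphocytes. The family is known for its part in T cell development and survival: animals that lack GIMAP5 lose most peripheral T cells, and several members bind proteins of the BCL2 family. H3K79me2 is laid down by the methyltransferase DOT1L behind elongating RNA polymerase II and is densest over the 5′ portion of active genes. The comparison asks where this mark lay over the family when oleic acid synthesis was blocked.

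The values are broad peaks that the authors called in each library. A gene's covered percent is the share of its body, from its first to its last annotated base in RefSeq, that lies under peaks. A gene was called marked at 50% or more. Where cover along a gene is described, the gene was cut into 3 equal parts, its 5′, middle and 3′ part. A peak was called strong where its false discovery rate q was at most 0.05, a −log10 q of at least 1.30, and weak otherwise. The number of reads is not in the peak lists, so the depth is unknown and a weak or missing peak cannot be told from a shallow library. The inhibitor library held 35018 peaks, of which 18.6% were strong, and the control library 124962, of which 0.643% were strong. Weak peaks therefore make up nearly all control cover, and counts of genes are given with all peaks and with strong peaks alone.

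In the inhibitor library 4 strong peaks lay over 7 of the genes, and 2 of these peaks held more than 1 gene. The control library covered the cluster in short, mostly weak pieces. With all peaks, 7 of 8 Gimap genes were marked in the inhibitor library and 4 of 8 in the control library, against 26.1% and 5.47% of all protein-coding genes. With strong peaks alone, the same comparison gave 7 of 8 and 0 of 8, against 19.6% and 1.33%. At least 1 base was covered in all 8 genes in both libraries, against 51.4% and 55.3% of all protein-coding genes, and with strong peaks alone in 7 and 1 of 8, against 34.7% and 3.92%. The median covered percent of the 8 genes was 100% in the inhibitor library and 51.4% in the control library, against 0.446% and 2.24% over all protein-coding genes. Of the 8 differences, inhibitor minus control, 6 were at least 25 percentage points above 0 and 1 was at least 25 points below it. Over all protein-coding genes 30.1% and 3.07% differed by that much in each of these directions. With strong peaks alone 7 of 8 genes (26.3% of all protein-coding genes) had an inhibitor cover at least 25 points above the control cover, and 0 (0%) one as far below it. Gimap3, at the distal end, was the member covered more in the control library.

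**Figure D1:**
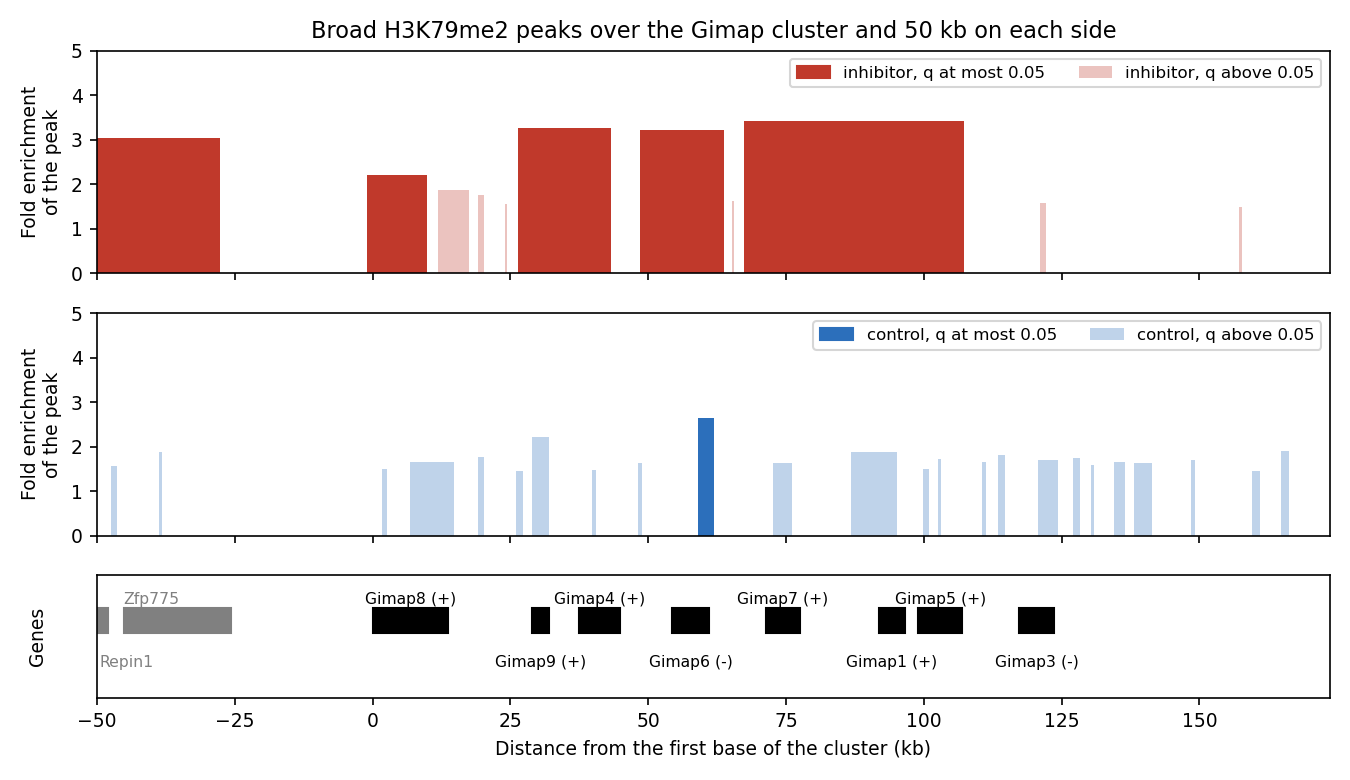
Broad H3K79me2 peaks over the Gimap cluster and 50 kb on each side, with the inhibitor library in the top row, the control library in the middle row and protein-coding genes in the bottom row, where black bars are Gimap genes with their strand in brackets and grey bars are neighbours. The x axis is the distance from the first base of the cluster in kb, the y axis the authors' fold enrichment of each peak, and dark bars are peaks at q of at most 0.05; 4 dark inhibitor peaks lie over 7 genes, and the 1 dark control peak lies over Gimap6.

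The DNA just before 3 of these genes is shown because their starts differed in how they were covered. The start of Gimap6 lay under the strongest peak of the control library in the region as well as under an inhibitor peak, that of Gimap5 under an inhibitor peak alone, and that of Gimap3 under a weak control peak alone. Each line gives the 250 bases before the annotated start (RefSeq, GRCm38.p6, the assembly that mm10 names), 5′ to 3′ on the strand of the gene. Capitals mark matches on either strand to the motifs listed after the sequences. Gimap6 is at chr6:48708245-48708494 on the minus strand, Gimap5 at chr6:48745947-48746196 on the plus strand and Gimap3 at chr6:48770852-48771101 on the minus strand.
Gimap6: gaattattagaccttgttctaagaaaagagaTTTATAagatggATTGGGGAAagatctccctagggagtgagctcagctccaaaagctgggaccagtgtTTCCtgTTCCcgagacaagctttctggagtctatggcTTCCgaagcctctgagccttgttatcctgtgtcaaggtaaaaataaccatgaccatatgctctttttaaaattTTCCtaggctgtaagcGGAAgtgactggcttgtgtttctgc
Gimap5: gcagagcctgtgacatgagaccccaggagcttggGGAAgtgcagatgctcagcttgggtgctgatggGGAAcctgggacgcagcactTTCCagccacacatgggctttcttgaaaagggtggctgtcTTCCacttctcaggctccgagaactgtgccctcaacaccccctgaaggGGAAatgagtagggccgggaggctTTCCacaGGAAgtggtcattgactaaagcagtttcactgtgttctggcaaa
Gimap3: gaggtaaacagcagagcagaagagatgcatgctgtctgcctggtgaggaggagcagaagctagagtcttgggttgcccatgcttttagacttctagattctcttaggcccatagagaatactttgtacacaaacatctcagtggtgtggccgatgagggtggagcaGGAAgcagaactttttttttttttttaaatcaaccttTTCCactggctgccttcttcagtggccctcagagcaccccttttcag

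The motifs searched on both strands were GGAA for ETS factors, TGTGGT for RUNX factors, AGATAA for GATA factors, CAGCTG for E proteins at an E-box, CTTTGA for TCF1 and LEF1, CCAAT for NF-Y and, for the general box before many starts, TATAAA. The core letters of ETS sites, GGAA, were present before an annotated start of all 8 genes, but also in 93.4% of the 32851 RefSeq promoters of the same length. At Gimap8, which has 2 annotated starts, they lay before the one further downstream and not before the other. These Gimap8 matches fall inside the gene body as measured here. GGAA occurred 7 times before Gimap5, 6 times before Gimap6 and 2 times before Gimap3. TGTGGT was found before 3 of the 8 genes (Gimap1, Gimap4 and Gimap7), against 14.05% of all promoters, and CCAAT before 3 (Gimap1, Gimap6 and Gimap9), against 33.8%. TATAAA was found before Gimap6 alone (12.4% of all promoters). In Gimap6 the matches to CCAAT and GGAA lie side by side in the run ATTGGGGAA. The GATA, E-box and TCF1 letters were before none of the 8 genes and in 9.99%, 13.0% and 13.8% of all promoters. A match is a description of letters, not a bound site. The GC content of the windows was 43.6% at Gimap6, 55.6% at Gimap5 and 47.2% at Gimap3, against a median of 52.4% over all promoters. With 1 window per gene, for Gimap8 that of the start further upstream, the longest stretch that any pair shared was 14 bases, a run of T alone, between Gimap8 and Gimap3, and the next was 11 bases, between Gimap9 and Gimap6.

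Gimap5 and Gimap1 are the members most tied to lymphocyte survival, and with Gimap7 they lay under 1 peak of the inhibitor library. That peak was 39.98 kb wide (chr6:48714581-48754564), with a −log10 q of 7.78 and a fold enrichment of 3.43. It began 4.04 kb before the start of Gimap7 and ended 364 bp after the last base of Gimap5, so it took in the 14.4 kb between Gimap7 and Gimap1 and the 2.40 kb between Gimap1 and Gimap5. Of all inhibitor peaks, 3.19% were at least as wide and 4.39% had at least this fold. Among the 6528 strong inhibitor peaks 4.30% touched 3 or more protein-coding genes, as this one did.

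Gimap5 (gene ID 317757, plus strand, 8004 bp) keeps quiescent T cells alive. It was covered over 100% in the inhibitor library and 20.5% in the control library, a difference of 79.5 points, the largest among the 8. Of all protein-coding genes 4.08% had a difference at least as high. Its control cover came from 2 weak peaks of 1.06 and 0.577 kb, with folds of 1.49 and 1.71, both inside the gene and neither over its start. The nearer of the pair began 883 bp after the first base.

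Gimap1 (gene ID 16205, plus strand, 4.75 kb) is needed for the survival of mature B and T cells. It was covered over 100% in the inhibitor library and 68.6% in the control library. The control peak, weak at a −log10 q of 0.622 and a fold of 1.88, was the widest of that list in the region at 8.29 kb and ran 5.03 kb upstream of the gene. Cover of the 5 kb before the gene was 100% in both lists. The lists differed at its 3′ end, where the 3′ part of the gene was covered over 100% in the inhibitor library and 5.69% in the control library.

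Gimap7 (gene ID 231932, plus strand, 6.02 kb) encodes a GTPase whose human counterpart stimulates GTP hydrolysis by GIMAP2. It was covered over 100% in the inhibitor library and 57.2% in the control library. The control cover was a single weak peak of 3.44 kb with a fold of 1.62 and a −log10 q of 0, which began 1.20 kb inside the gene and left its start bare.

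Gimap6 (gene ID 231931, minus strand, 6.66 kb), a GTPase that binds the autophagy protein GABARAPL2, held the only strong control peak of the cluster and its flanks of 50 kb. It was covered over 100% in the inhibitor library and 31.3% in the control library, and 7.01% of all protein-coding genes had a difference at least as high. Its control peak was 2.90 kb wide (chr6:48706162-48709061), with a fold of 2.64 and a −log10 q of 2.67. Of all control peaks 0.266% had at least that fold and 0.356% at least that −log10 q. It lay over the 5′ end, reaching 817 bp upstream, and covered 93.8% of the 5′ part of the gene and 0% of the middle and 3′ parts. The inhibitor peak there was 15.3 kb wide (chr6:48695614-48710962), with a fold of 3.21 and a −log10 q of 8.01. It covered all 3 parts in full, ran 2.72 kb upstream of the 5′ end and 5.97 kb past the 3′ end.

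Gimap9 (gene ID 317758, plus strand, 3.00 kb) and Gimap4 (gene ID 107526, plus strand, 7.49 kb) lay under 1 inhibitor peak of 17.0 kb (chr6:48673538-48690513), with a fold of 3.27 and a −log10 q of 8.55, the highest in the region. GIMAP4 is known from mouse knockouts to speed the death of T cells once it has been triggered. Gimap4 was covered over 79.3% in the inhibitor library and 9.99% in the control library, where a weak peak of 0.748 kb lay 2.35 kb inside the gene. The inhibitor peak covered its 5′ and middle parts in full and 37.9% of its 3′ part.

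Gimap9 was covered over 100% in both lists, so its difference was 0 points with all peaks. With strong peaks alone it was covered over 100% in the inhibitor library and 0% in the control library, because its control peak, at a −log10 q of 1.22, fell just short of the limit of 1.30. That control peak (3.17 kb, fold 2.21) matched the gene closely, starting 46 bp before it and ending 133 bp after it. Full cover of a gene body was seen in 6.89% of all protein-coding genes in the inhibitor library and in 0.585% in the control library. Gm46958, a long non-coding RNA gene on the other strand, overlaps the start of Gimap9, and signal there cannot be given to either gene.

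Gimap8 (gene ID 243374, plus strand, 13.7 kb), the longest gene of the cluster, was covered over 86.2% in the inhibitor library and 56.4% in the control library. The inhibitor cover was full in the 5′ and middle parts, and the control cover rose toward the 3′ end. The 5′ part of the gene was covered over 100% in the inhibitor library and 19.2% in the control library. For the middle part these were 100% and 50.1%, and for the 3′ part 58.7% and 100%. Its strong inhibitor peak was 11.0 kb wide (chr6:48646072-48657060), with a fold of 2.20 and a −log10 q of 1.69. It was the weakest of the 4 strong inhibitor peaks of the cluster, whose other −log10 q values were between 7.78 and 8.55. A weak inhibitor peak of 5.73 kb followed it. The control peaks at Gimap8 were both weak, with folds of 1.49 and 1.66.

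Gimap3 (gene ID 83408, minus strand, 6.39 kb), a close relative of Gimap5 that affects the segregation of mitochondrial DNA in mouse leukocytes, ran the other way. It was covered over 16.0% in the inhibitor library and 46.4% in the control library, a difference of −30.3 points. In the inhibitor library it held a weak peak of 1.02 kb with a fold of 1.59 and a −log10 q of 0.115, which lay 1.51 kb inside the gene. In the control library it held a weak peak of 3.57 kb with a fold of 1.70 and a −log10 q of 0.00820, which covered its 5′ part in full and reached 610 bp upstream. Neither list held a strong peak there, and with strong peaks alone its covered percent was 0% in both. The last strong inhibitor peak ended 9.90 kb short of Gimap3. Gimap3 and Gimap5 are duplicates of each other, and whether reads that match both were kept is not stated, so the cover of this pair is less certain than that of the other members.

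**Figure D2:**
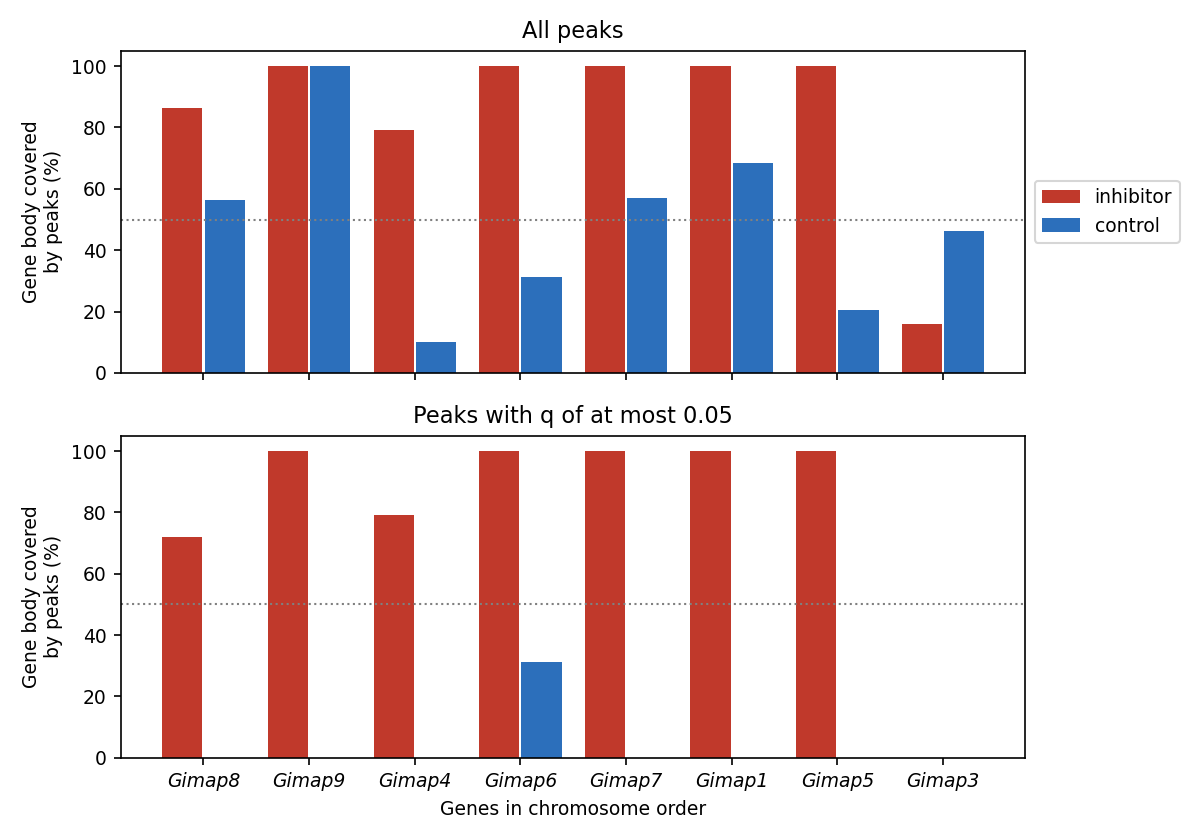
Percent of each Gimap gene body under peaks, for the inhibitor library (red, left) and the control library (blue, right), 1 library each, with all peaks above and peaks at q of at most 0.05 below; the dotted line is the 50% limit for a marked gene. With strong peaks alone, control cover remained at Gimap6 alone, at 31.3%, and inhibitor cover at every gene but Gimap3.

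Seen from the 5′ end of each gene, where H3K79me2 usually lies, inhibitor peaks began before the gene and control peaks often did not reach its start. The first annotated base lay in a peak for 7 of 8 genes in the inhibitor library and for 4 of 8 in the control library (Gimap9, Gimap6, Gimap1 and Gimap3), against 27.3% and 7.24% of the 17492 protein-coding genes whose strand is known. Strong peaks alone gave 7 of 8 and 1 of 8, against 23.6% and 1.37%. At the other 4 genes the nearest control peak was 883 to 2354 bp from the start. The first 5 kb, or the whole gene where it is shorter, was covered over at least 50% for 7 of 8 genes in the inhibitor library and 4 of 8 in the control library. Of the genes with a known strand, 36.6% and 13% reached this. For strong peaks alone these were 7 of 8 and 0 of 8, against 29.8% and 2.96%. The difference in the first 5 kb was 82.5 points at Gimap8, against 29.8 over its body, and 85.04 points at Gimap4, against 69.3. At Gimap3 it was −38.8 points.

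The cover also extended upstream. The 5 kb before the gene was covered over at least 50% for 6 of 8 genes in the inhibitor library and 1 of 8, Gimap1, in the control library, against 14.3% and 4.27% of the genes with a known strand. Strong peaks alone reached this for 6 of 8 and 0 of 8, against 12.4% and 0.697%. Other Gimap genes lie near several of these starts, so this upstream cover is shared with them. The 3′ part of the gene was covered over at least 50% for 6 of 8 genes in the inhibitor library and for 2 of 8, Gimap8 and Gimap9, in the control library, against 17.7% and 3.98% of the genes with a known strand. For strong peaks the counts were 5 of 8 and 0 of 8, against 13.3% and 0.583%.

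**Figure D3:**
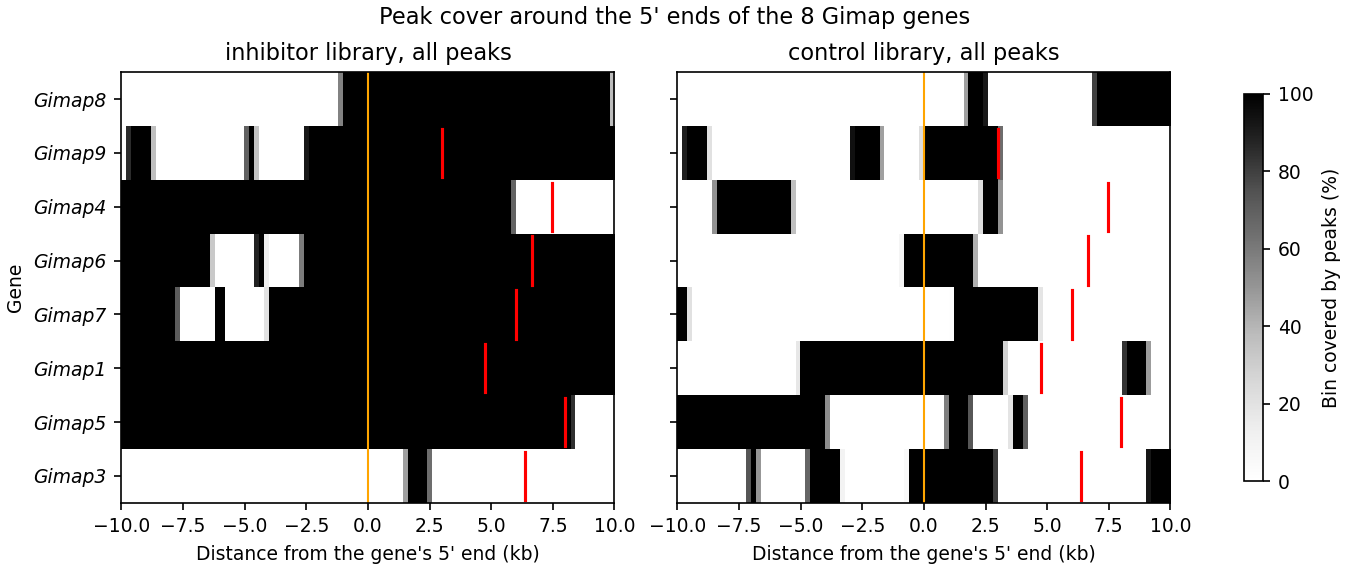
Peak cover from 10 kb before to 10 kb after the 5′ end of each Gimap gene, in bins of 200 bp read in the direction of the gene, for the inhibitor library (left) and the control library (right), 1 library each; grey level is the percent of the bin under any peak, the orange line is the 5′ end and each red tick the 3′ end of a gene of up to 10 kb. Inhibitor cover runs across the start of 7 genes, and control cover across the start of 4.

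As 1 stretch, the cluster span was covered over 73.4% in the inhibitor library (90.8 kb) and 29.9% in the control library (37.0 kb). With strong peaks alone these were 66.5% and 2.35%. Of the control cover in the span 82.2% lay inside inhibitor peaks, and 33.5% of the inhibitor cover lay inside control peaks. The 8 gene bodies together were covered over 84.3% in the inhibitor library and 44.4% in the control library, and the 7 gaps between them over 64.4% and 18.0%. Strong peaks covered the gene bodies over 79.01% and 3.72%, and the gaps over 56.1% and 1.21%. The gaps from Gimap9 to Gimap4, Gimap7 to Gimap1 and Gimap1 to Gimap5 were covered over 100% in the inhibitor library, and over 2.44%, 34.9% and 0% in the control library. The gap from Gimap5 to Gimap3 was covered over 3.55% in the inhibitor library and 19.6% in the control library. The strong inhibitor peaks were 16.5 kb apart between Gimap8 and Gimap9, 5.10 kb apart between Gimap4 and Gimap6, and 3.62 kb apart between Gimap6 and Gimap7.

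Runs of 8 neighbouring protein-coding genes with as many marked genes were uncommon in the inhibitor library. The runs include the cluster itself and were not matched to it for gene length or spacing. Of 21740 such runs along the chromosomes, which overlap one another, 1.18% held at least 7 marked genes, as the Gimap cluster did, and 0.465% did so with strong peaks alone.

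The region, with 50 kb on each side, held 11 inhibitor peaks, 5 of them strong, and 24 control peaks, 1 of them strong. Their median width was 5.73 kb in the inhibitor library and 1.27 kb in the control library. Of the 11 inhibitor peaks 8 overlapped a control peak (72.7%), and of the 24 control peaks 15 overlapped an inhibitor peak (62.5%). Over the whole libraries 40.6% of inhibitor peaks and 21.3% of control peaks did so. Peak width was not matched, and 1 shared base counted as overlap. The median width over the whole libraries was 1.76 kb for inhibitor peaks and 1.29 kb for control peaks. Neighbouring peaks of 1 library are not independent, so no error is given for these shares.

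The sides of the cluster differed. The 50 kb before it were covered over 46.7% in the inhibitor library and 2.82% in the control library. Nearly all of this inhibitor cover, 23.3 kb, came from 1 strong peak (fold 3.05, −log10 q 4.68) over the zinc finger genes Repin1 and Zfp775. The peak was 32.7 kb wide, began outside these 50 kb and also touched the gene Gm5111. Repin1 was covered over 100% in the inhibitor library and 0% in the control library, and Zfp775 over 89.0% and 2.43%. Between that peak and Gimap8 the mark stopped: in the last 25 kb before the cluster the inhibitor library covered 4.46%, which is the start of the Gimap8 peak, and the control library 0%.

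The 50 kb after the cluster, which hold no protein-coding gene, were covered over 0.878% in the inhibitor library and 22.4% in the control library. All of this control cover was weak. The nearest protein-coding genes further on, named after their values had been seen, were Tmem176b and Tmem176a, which encode membrane channel proteins of leukocytes. Their nearest bases lie 63.0 and 70.6 kb beyond Gimap3. Tmem176b was covered over 74.2% in the inhibitor library and 8.56% in the control library, and Tmem176a over 98.4% and 0%. Tmem176a lies inside Tmem176b on the other strand, so cover there cannot be given to either gene. The next gene, Gm7932, 89.5 kb beyond Gimap3, went the other way, with 0% in the inhibitor library and 29.6% in the control library, all of it weak.

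Genes of other families and pathways, chosen for comparison, were covered to differing degrees, some of them in 1 library alone. Of 12 BCL2 family genes, which set the balance of cell survival and death, 8 were marked in the inhibitor library and 2 in the control library, and 6 and 1 with strong peaks alone. Over all protein-coding genes 26.1% and 5.47% were marked, and 19.6% and 1.33% with strong peaks alone. Bcl2, the survival factor induced by IL-7, was covered over 100% in the inhibitor library and 82.4% in the control library, and Mcl1, another survival factor, over 100% and 69.8%. The death effectors Bax and Bak1 were covered over 95.7% and 71.1% in the inhibitor library and 0% each in the control library. Bcl2l11, which encodes BIM, was covered over 92.5% in the inhibitor library and 11.2% in the control library, by weak peaks alone in both. Bak1 and Bcl2l11 each overlap another coding gene. The median difference of this list was 41.5 points, against 37.1 for the Gimap genes and 0 over all protein-coding genes.

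Of 9 genes from the IL-7 receptor to STAT5, which carry the survival signal supplied in the culture, 8 were marked in the inhibitor library and 7 in the control library, and 8 and 5 with strong peaks alone. Against this, 26.1% and 5.47% of all protein-coding genes were marked, and 19.6% and 1.33% with strong peaks alone. Il7r, the receptor chain, was covered over 100% in the inhibitor library and 53.2% in the control library, and Il2rg, the shared cytokine receptor chain, over 100% and 65.3%. Stat5a was covered over 100% in the inhibitor library and 27.9% in the control library, and Stat5b over 100% and 52.7%. Socs1, a feedback inhibitor, was covered over 100% and 66.3%. Pim1, a kinase gene induced by STAT5, was covered over 100% in both lists. Il7r, Il2rg, Stat5b, Socs1 and Pim1 thus held strong control peaks over more than 50% of the gene, as no Gimap gene did.

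Interferon-inducible GTPases, another family of immune GTPases that is also encoded in gene clusters, gave 10 of 14 measured genes marked in the inhibitor library and 4 in the control library, and 7 and 2 with strong peaks alone. Marked among all protein-coding genes were 26.1% and 5.47%, and 19.6% and 1.33% with strong peaks alone. Irgm2 was covered over 100% in the inhibitor library and 26.1% in the control library, Igtp over 73.6% and 18.97%, and Tgtp1 over 100% and 41.7%. Irgm1 and Gbp6 were covered over 100% in the inhibitor library, and over 61.3% and 58.3% in the control library, by peaks that included strong ones. Gbp4 was covered over 96.9% and 44.4%. The control cover of Tgtp1 was all under strong peaks, and strong control peaks covered 20.3% of Gbp4. Of the 14 genes 9 were at least 25 points higher in the inhibitor library and 1 in the control library, against 30.1% and 3.07% of all protein-coding genes. The median difference of this list was 38.5 points. Several of these genes have near-identical copies, so their cover is uncertain.

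Of 9 genes for vesicle traffic, lysosomes, autophagy and T cell quiescence, processes in which GIMAP proteins take part, 8 were marked in the inhibitor library and 3 in the control library, and 5 and 0 with strong peaks alone. For all protein-coding genes the shares were 26.1% and 5.47%, and 19.6% and 1.33% with strong peaks alone. Gabarap, an autophagy gene related to the partner of GIMAP6, was covered over 100% in the inhibitor library and 0% in the control library. Gabarapl2, that partner itself, was covered over 100% and 8.43%, with no strong peak, and Lamp1, a lysosomal membrane protein, over 60.9% and 7.61%.

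The labelled cell type was checked against markers. Of 12 T lineage genes 11 were marked in the inhibitor library and 8 in the control library, and 10 and 6 with strong peaks alone. The shares of all protein-coding genes were 26.1% and 5.47%, and 19.6% and 1.33% with strong peaks alone. The T lineage gene Ptcra was marked in neither list, at 47.1% in the inhibitor library and 18.1% in the control library, all of it weak. Bcl11b, the T cell commitment factor, was covered over 100% in the inhibitor library and 94.0% in the control library, and Cd3e, a T cell receptor subunit, over 100% by a weak peak and 0%. None of the 4 B lineage, 6 myeloid, 6 OP9 stroma and 4 erythroid markers was marked in either list. Cd79a, Col1a1 and Pdgfra were among those with no peak. The nearest to the limit was the stromal gene Pdgfrb, at 45.3% in the inhibitor library and 9.18% in the control library. Strong peaks covered 44.2% of Pdgfrb in the inhibitor library and 0% in the control library. Of 4 natural killer markers Gzma, which overlaps another coding gene, was marked in both lists (98.5% and 67.9%), all under strong peaks. Klrb1c was covered over 0% in the inhibitor library and 40.2% in the control library, all of it weak. GIMAP genes are also active in other lymphocytes, and the part of other cells in the cover of the cluster was not tested.

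**Figure D4:**
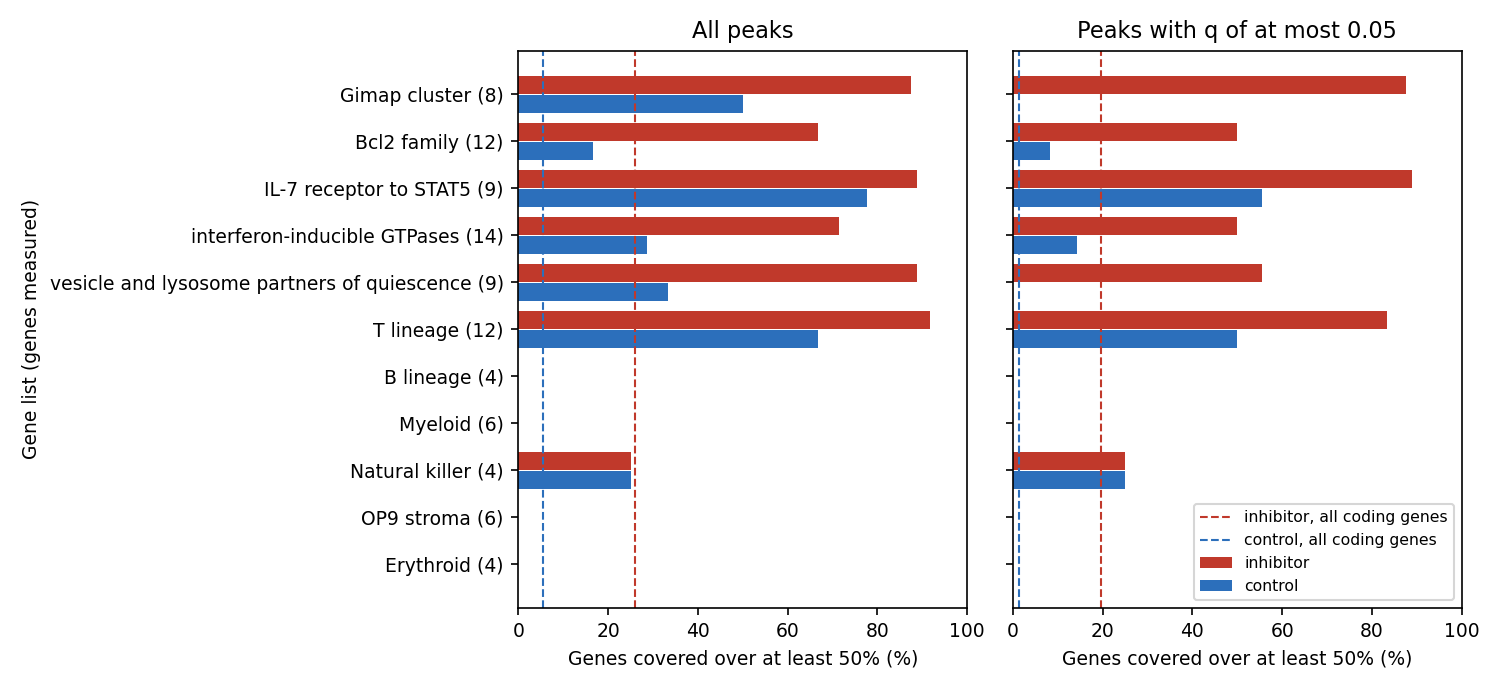
Percent of the genes in each list whose body was covered over at least 50% in the inhibitor library (red, upper bar) and the control library (blue, lower bar), 1 library each, with all peaks on the left and peaks at q of at most 0.05 on the right; dashed lines give the same percent over all 21887 protein-coding genes. The Gimap cluster, at 7 of 8 genes in the inhibitor library in both panels, has 4 of 8 control genes on the left and 0 of 8 on the right.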

How the data were processed

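H3K79me2 was measured by ChIP-seq in 2 libraries, 1 per condition. The submitters' processing notes name BWA, MACS2 2.1.0 and the mm10 build but not what each was used for. Caller options and any use of the inputs were not given in the sources used here. The deposited lists hold broad peaks called per library. Per the file format, each deposited peak has a fold enrichment (a ratio to the local background), a −log10 p, a −log10 q and a score, which is −log10 q times 10 rounded down. These authors' values average over the peak and were used only to describe, rank or filter peaks within a list. Values from both lists that stand near each other are not a measured difference. No peak of either list had a −log10 p under 1.00. Depth is unknown.

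Touching peaks were joined, and the cover of each RefSeq GRCm38.p6 gene body was computed with pandas 2.3.3, numpy 2.4.6, scipy 1.17.1 and matplotlib 3.10.9 under Python 3.11.15. Strands came from the RefSeq promoter table, which gave one for 17492 of 21887 protein-coding genes and for all 8 Gimap genes. The cover function gave the right percent for 400 of 400 genes under simulated peaks. With 1 library per condition no test was run. The members, gene lists and limits were chosen with earlier results of these data known. Named were all members, protein-coding genes within 50 kb, and from each list the 3 genes with the largest difference and those with a strong control peak, of which some markers are given as counts. Ptcra was also named, as the T lineage marker marked in neither list. Of 16 interferon-inducible GTPase entries 14 were matched. Protein sequences were not used here, and 1 marker gene is not reported here. Alternatives were stricter peaks, merging within 1 kb, a control list of equal covered length, the first 5 kb, other limits and other flanks.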

Additional observations from a re-analysis of the deposited data

How the results depend on the processing

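No paired analysis was possible because each condition had 1 library, and leaving out a library leaves no comparison. Depth is unknown, and most control cover in the cluster is weak, so control results that use all peaks rest mainly on peaks with q above 0.05. No alternative run turned the sign of a gene difference, and Gimap9, at 0 with all peaks, had no sign to turn. The difference reached 0 for Gimap3 with strong peaks alone. For Gimap8 it did so at a −log10 q of at least 5 or a fold of at least 3. Control peaks in the region reached a −log10 q of 2.67 and a fold of 2.64 at most, and only Gimap6 held a strong one. Under the peak filters a difference above 0 was thus unable to fall below it, except at Gimap6 with strong peaks alone. In the first 5 kb, with weak peaks kept, differences ran from −38.8 points at Gimap3 to 85.04 at Gimap4, with Gimap9 at 0. Merging within 1 kb changed no cover in the cluster or its flanks. Equal covered length left out 1085 of the 124962 control peaks but none of the 24 in the region, so neither alternative tested these results.

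The number of genes marked in the inhibitor library was between 6 and 8 under all alternatives run. In the control library it was 4 with all peaks, 0 at q of at most 0.05, at −log10 q of at least 5 and at fold of at least 3, 8 with any covered base, 1 at a limit of 80%, and 2 when 2 kb before the gene were added, an alternative chosen after seeing the data. The 1 gene higher in the control library, Gimap3, was not counted (0) under the same 3 peak filters or at a limit of 50 points, where 3 genes were higher in the inhibitor library. Shares of all protein-coding genes were not computed for the limits of 80% and 50 points or with 2 kb added. Nor were they computed at a −log10 q of at least 5 or a fold of at least 3. These counts therefore show only how the member counts moved. The median difference was 37.1 points with all peaks, 89.7 at q of at most 0.05, 100 at −log10 q of at least 5 and at fold of at least 3, and 44.9 in the first 5 kb. The difference over the span was 43.5 points with all peaks, 64.1 at q of at most 0.05, and 58.5 at −log10 q of at least 5 and at fold of at least 3. Over both flanks of 50 kb together it was 11.2 points, 23.3 at q of at most 0.05, 0 at −log10 q of at least 5, 22.2 at fold of at least 3, 9.80 with flanks of 100 kb and −13.8 with flanks of 25 kb, which leave out the peak over Zfp775. The share of inhibitor peaks that overlapped a control peak was 72.7%, 27.3% when at least 50% of the peak had to overlap, and 20.0% with strong peaks in both lists. That of control peaks was 62.5%, 54.2% when at least 50% of the peak had to overlap, and 100% (1 of 1 peak) with strong peaks in both lists. Over the whole libraries 11.8% of strong inhibitor peaks and 98.5% of strong control peaks overlapped a strong peak of the other list. The runs with strong peaks in both lists were also added after seeing the data.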
